A study of Drosophila melanogaster with 12 samples.

Results

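The Rab GTPases are small GTP-binding proteins that give each membrane compartment of the secretory and endocytic pathways its identity. Exchange factors load them with GTP and GTPase-activating proteins end the active state. In the GTP-bound form they recruit tethers, motors and coat adaptors, and the GDP dissociation inhibitor returns the GDP-bound form to the cytosol. In the cellularizing fly embryo, membrane delivered from the Golgi and from recycling endosomes lets furrows grow between the cortical nuclei, and both Rab5 and Rab11 are known to be needed for this growth.

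Members of the family were taken as every gene whose symbol starts with Rab or RabX followed by a digit, which gave 35 of the 17868 genes in the count table. Of these, 33 were Rab GTPases and 2 were regulators that share the prefix, Rab3-GEF and Rab3-GAP. Enough reads for testing were present for 28 members, 26 of them GTPases. RNA came from whole Drosophila melanogaster embryos of 4 genotypes with 3 libraries each, named Control, Drp1SG, SOD2i and the combination of both, called the double genotype here. The protein of Drp1 is a dynamin-like GTPase required for mitochondrial fission, and that of Sod2 removes superoxide in the mitochondrial matrix. The series asks how mitochondrial fusion and fission act on expression in early embryos. SOD2i was taken to mean knockdown of Sod2 by RNA interference. The labels give no meaning for the letters SG, no driver for either genotype, no allele or age in hours per genotype, and no further description of Control. Every library was a pool of hand-sorted embryos, mixed evenly from the cellularizing and the gastrulating stage. The collection window depended on how many eggs a genotype laid, and no label ties a window to a genotype, so window and genotype cannot be told apart.

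Libraries held 61757756 to 91949037 reads in genes, and Rab genes took 0.177% to 0.214% of them. Levels are in CPM, the usual read count per library size, with sizes scaled by TMM, and a count of 3 reads was worth 0.0314 to 0.0499 CPM. Sod2 fell from 50.8 ± 0.691 CPM (SD, n = 3) in Control to 1.82 ± 0.486 in SOD2i, with 3.04 ± 0.513 in the double genotype. Drp1 stood at 36.0 ± 2.41 CPM in Control, 84.0 ± 17.5 in Drp1SG, 22.1 ± 3.02 in SOD2i, with 43.6 ± 0.645 in the double genotype. In whole embryos, fewer cells of a type and less RNA per cell cannot be told apart. Of 23 unstable egg transcripts tested, 9 were higher and 0 lower in Drp1SG than in Control, with summed levels of 4223.59 to 5157.55 CPM against 2664.46 to 4107.44. The 9 are 39.1% of the list, where 9.72% of all genes were called higher and 8.83% lower. Of 21 early zygotic genes, 0 were higher and 9 lower (42.9%) in Drp1SG, and 4 were higher (19.0%, where 10.3% of all genes were) and 0 lower in SOD2i. Germline genes had 5 of 11 higher in Drp1SG (45.5%), and gastrulation genes 2 of 17 lower (11.8%). Of 16 genes of later embryonic stages, 5 were higher (31.2%, where 4.62% of all genes were) and 0 lower in the double genotype than in Control, with summed levels of 68.5 to 131 CPM against 54.6 to 65.7. Of the same 16 genes, 4 were higher in Drp1SG than in Control (25%), and 11 were called higher when the double genotype was set against SOD2i (68.8%, where 10.5% of all genes were). Against SOD2i the double genotype also had 11 of 21 early zygotic genes lower (52.4%, where 8.79% of all genes were) and 0 higher. Against Drp1SG it had 6 of 23 unstable egg transcripts lower (26.1%, where 5.82% of all genes were) and 0 higher. Some genes stand in more than 1 list, such as twi and sna in the early zygotic and the gastrulation list.

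Rab11 and Rab10 led the family in Control. Per kilobase of exonic length, Rab11, the GTPase of recycling endosomes, reached 154 CPM per kb and Rab10, which directs secretion toward basal membranes in fly epithelia, reached 152. Rab2, which acts at the Golgi and in fusion with lysosomes, followed at 118 CPM per kb. Rab8, which acts in transport from the Golgi to the plasma membrane, stood at 79.4, and Rab35, which acts in endocytic recycling, at 53.9. Rab7 of late endosomes had 47.6 CPM per kb, Rab5 of early endosomes 37.5, Rab6 of the Golgi 33.0 and Rab1 of the step from the endoplasmic reticulum to the Golgi 24.7. In the same range stood Rab39 at 44.2 CPM per kb and Rab14 at 30.3. Rab3 and Rab26, known for synaptic and other secretory vesicles, were near the low end at 0.806 and 0.0865 CPM per kb, and Rab9, which in mammals returns receptors from late endosomes to the Golgi, had 0.452.

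**Figure D1:**
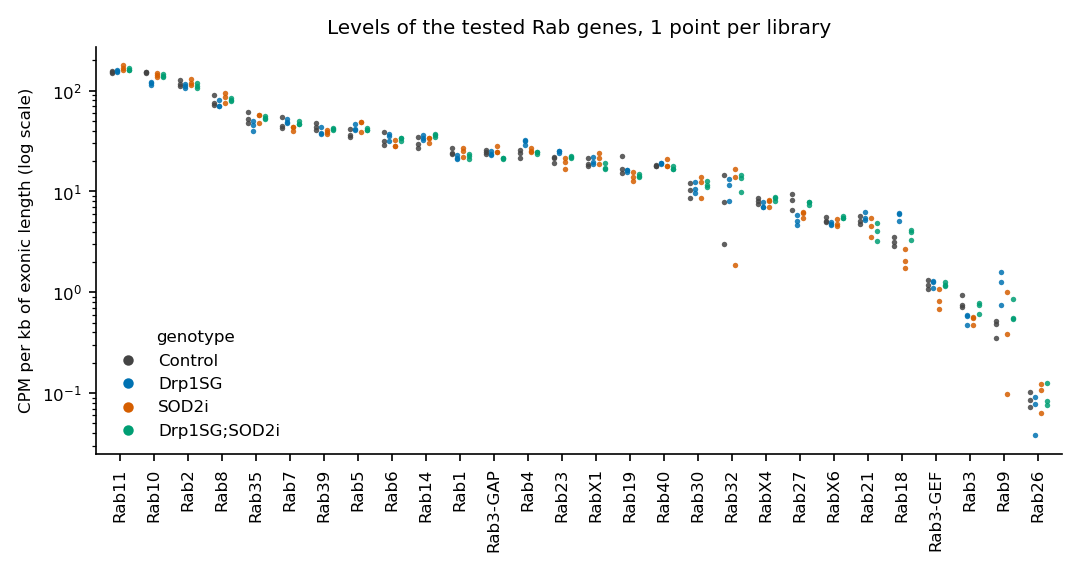
Level of each of the 28 tested Rab genes in CPM per kb of exonic length (log scale), ordered by the Control mean, with 1 point per library coloured by genotype. Rab11 and Rab10 stand highest, at 154 and 152 CPM per kb in Control, Rab26 stands lowest at 0.0865, and the points of Rab32 and Rab9 spread more widely than those of the other genes.

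The other 7 members had too few reads to be tested. Rab9D had 7 reads in all, in 3 libraries, and Rab9Db had 2 reads in 1 library. Rab9E, Rab9Fa, Rab9Fb, RabX2 and RabX5 had no read in any library, which at these depths allows up to 0.0314 to 0.0499 CPM per library, for counting error only. Rab9D, Rab9Db, Rab9E, Rab9Fa and Rab9Fb are closely related copies. How reads that match several copies were counted is not stated in the sources used here, so their counts are uncertain.

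The exons of 8 tested members share bases with another annotated gene. The share was 41.1% for Rab1, with an antisense RNA, and 36.2% for RabX6, with Vti1a on the other strand. It was 9.25% for RabX4, with Kaz on the same strand, 5.29% for Rab3-GEF, with Cyp4s3, and 4.59% for Rab26, and under 1% for Rab14, Rab19 and Rab4. The library kit marks strand, but the strand setting of the counting is not given, so reads in these stretches may belong to either gene.

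Of the members called in no comparison, the 8 most abundant are given by their genotype means. Rab11 had 280 ± 7.39 CPM in Control, 285 ± 7.98 in Drp1SG, 305 ± 16.9 in SOD2i, with 296 ± 7.60 in the double genotype. Rab2 had 203 ± 15, 191 ± 7.96, 206 ± 15.3 and 194 ± 10.4 CPM in the same order, and Rab8 had 184 ± 23.3, 172 ± 13.5, 199 ± 21.3 and 190 ± 7.02. For Rab2 and Rab8 the largest difference between genotype means was near the spread between libraries of 1 genotype. The Rab11 libraries of SOD2i and of the double genotype did not overlap with Control, with log2 differences of 0.12 ± 0.06 (adjusted p = 0.138) and 0.08 ± 0.06 (adjusted p = 0.419). Rab35 had 191 ± 24.5 CPM in Control, 159.5 ± 17.7 in Drp1SG, 192 ± 18.6 in SOD2i, with 192 ± 7.36 in the double genotype. Its log2 difference in Drp1SG was -0.26 ± 0.11 (adjusted p = 0.122). Rab35 was called with upper-quartile scaling (adjusted p = 0.0313) and without Control replicate 3 and SOD2i replicate 2 together (0.0305). It was also called with the mean level of unstable egg transcripts as a covariate (-0.53, adjusted p = 0.00385). Every Drp1SG library lay above every other library on that covariate, so covariate and genotype cannot be told apart. Rab5 had 118 ± 11.3, 136 ± 10.4, 143 ± 18.1 and 131 ± 3.60 CPM, so its lowest mean was that of Control. With edgeR the log2 difference of Rab5 in SOD2i was 0.28 ± 0.10 (SE), at an adjusted p of 0.0638. Rab7 had 80.9 ± 11.7, 84.8 ± 3.64, 72 ± 3.12 and 81.4 ± 3.31 CPM, and Rab6 had 62.6 ± 9.34, 66.2 ± 5.81, 56.1 ± 4.16 and 62.9 ± 3.01. Rab14, which acts between endosomes and the Golgi, had 56.3 ± 6.97, 63.3 ± 3.70, 60.3 ± 3.75 and 67.2 ± 1.98 CPM.

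Most Rab transcripts were steady between libraries of 1 genotype. The pooled SD of log2 CPM within genotypes had a median of 0.132 over the 28 tested members, against 0.193 over all 9863 tested genes. Rab11 was the steadiest member at 0.0519. Rab32 was the least steady at 1.07 and Rab9 came next at 0.870. The mean level over all libraries was 43.8 CPM for Rab32 and 1.12 for Rab9. Rab26, at a mean of 0.377 CPM, had an SD of 0.436, and Rab3, at 2.43 CPM, had 0.180.

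In Drp1SG against Control, 5 of 28 tested Rab genes were called with edgeR, which here means a Benjamini-Hochberg adjusted p below 0.05. The recycling GTPase Rab4 and the lipid droplet GTPase Rab18 were higher, while Rab10 and the secretory vesicle GTPases Rab27 and Rab3 were lower. The 2 higher members are 7.14% of those tested, where 9.72% of all genes were called higher, and the 3 lower are 10.7%, where 8.83% of all genes were called lower. The median log2 difference was 0.03 over the members and 0.01 over all genes, and its median size was 0.16 and 0.23. Both shares of called members were near the background.

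Rab10 had 350, 355 and 362 CPM in the Control libraries, 277, 266 and 288 in Drp1SG, 316, 334 and 352 in SOD2i, and 326, 345 and 320 in the double genotype. All Drp1SG libraries lay under every other library. The log2 difference of Drp1SG from Control was -0.36 ± 0.06, a level of 77.9% of Control, at an adjusted p of 0.00152. Rab4, which returns cargo from early endosomes to the surface, had 28.0, 31.7 and 33.8 CPM in Control, 41.5, 42.5 and 38.1 in Drp1SG, 32.3, 35.5 and 33.2 in SOD2i, and 32.4, 32.7 and 31.0 in the double genotype. Here the Drp1SG libraries lay above every other library, at 131% of the Control mean, with a log2 difference of 0.39 ± 0.09 and an adjusted p of 0.00948.

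Rab18, known in mammals for its place on lipid droplets and the endoplasmic reticulum, had 2.63, 2.92 and 2.40 CPM in Control, 4.94, 5.05 and 4.23 in Drp1SG, 2.23, 1.45 and 1.71 in SOD2i, and 3.31, 3.48 and 2.72 in the double genotype. Drp1SG was high and SOD2i low, and neither overlapped with Control. In Drp1SG the log2 difference was 0.84 ± 0.17, at an adjusted p of 0.00673 and 179% of the Control mean. The unstable egg transcripts were also high in Drp1SG. With their mean log2 CPM as a covariate in edgeR, the log2 difference of Rab18 was 0.51 at an adjusted p of 0.119. That mean was higher in every Drp1SG library than in any other library, so covariate and genotype cannot be told apart.

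Rab27, which in mammals docks secretory granules, had 12.8, 14.6 and 10.2 CPM in Control, 8.04, 9.22 and 7.21 in Drp1SG, 8.45, 9.58 and 9.88 in SOD2i, and 11.5, 12.2 and 12.3 in the double genotype. Both single genotypes lay wholly under Control, and the double genotype lay inside its range. Rab3, the synaptic vesicle GTPase, had 2.69, 3.56 and 2.83 CPM in Control, 1.77, 2.17 and 2.22 in Drp1SG, 1.79, 2.11 and 2.06 in SOD2i, and 2.80, 2.94 and 2.28 in the double genotype. Its single genotypes were again under every Control library, and the double genotype overlapped with Control. In Drp1SG the log2 difference was -0.62 ± 0.14 for Rab27 (adjusted p = 0.0112) and -0.56 ± 0.17 for Rab3 (adjusted p = 0.0360).

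Single libraries decided part of these calls. Calls over all genes went from 959 higher and 871 lower to 736 and 589 without Control replicate 2. Without Drp1SG replicate 3 they were 757 and 582. Without Control replicate 2, 3 members were called, and Rab27 and Rab3 had adjusted p of 0.0540 and 0.144. Without Drp1SG replicate 3, 3 were called, with 0.0552 for Rab27 and 0.0623 for Rab3. Rab3 was also lost without Drp1SG replicate 1 (0.132), without Drp1SG replicate 2 (0.0799) and without double genotype replicate 1 (0.0558). Its call also ended with no filter (0.0556), in a fit of only the groups compared (0.0753) and with the covariate of unstable egg transcripts (0.115). Rab10 kept its call under all 22 alternatives.

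The authors' deposited table for Drp1SG gives an adjusted p under 0.05 to 4 higher and 3 lower of 28 members. Of all genes with an adjusted p there, 18.6% were under 0.05. The authors' deposited table holds the 5 members named above and 2 more, Rab9 with a log2 difference of 1.41 (adjusted p = 7.85e-04) and Rab23 with 0.25 (adjusted p = 0.0465). In edgeR fitted to all 12 libraries these had 1.41 ± 0.57 (adjusted p = 0.110) and 0.26 ± 0.09 (adjusted p = 0.0761). Rab9 was called without SOD2i replicate 1 (0.0397) or 2 (0.0243), and Rab23 without SOD2i replicate 1 (0.0303) or 3 (0.0246). In a fit of only the Control and Drp1SG libraries both were called, Rab9 at an adjusted p of 0.0229 and Rab23 at 0.0457, and the DESeq2 Wald test on all libraries called Rab23 (0.0483). Rab23 is known in flies for planar polarity of wing hairs.

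**Figure D2:**
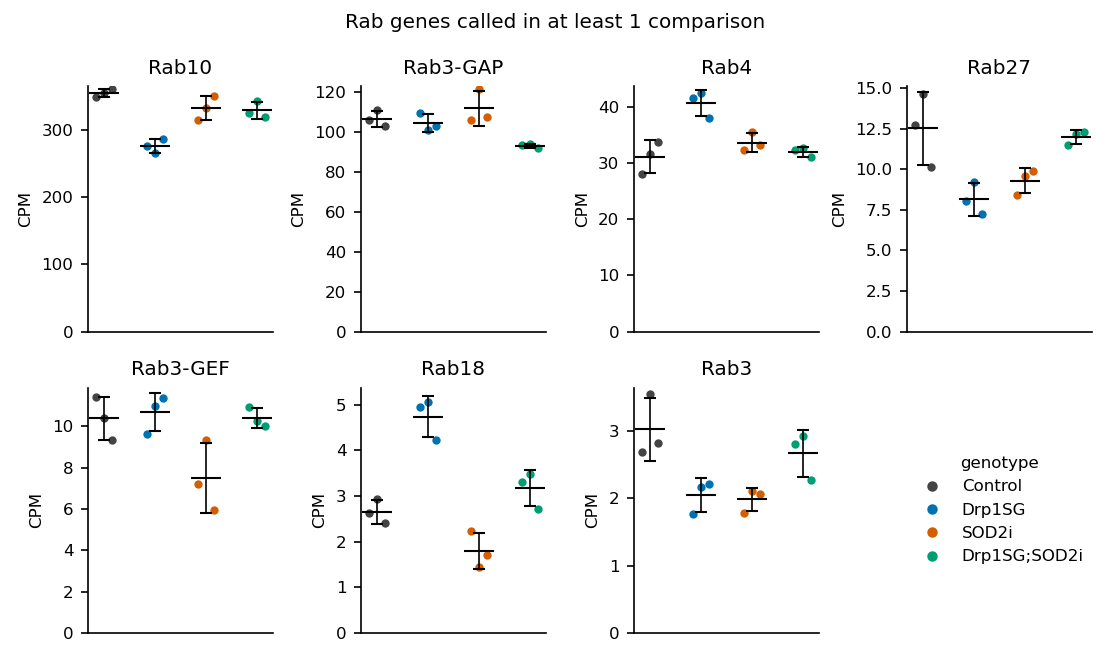
CPM of the 7 Rab genes called in at least 1 comparison, with 1 panel per gene, 1 point per library and bars for the mean and SD over 3 libraries of a genotype. Rab10 is lowest and Rab4 and Rab18 are highest in Drp1SG, Rab27 and Rab3 are low in both single genotypes, Rab3-GEF is lowest in SOD2i, and Rab3-GAP is lowest in the double genotype at 92.1 to 94.0 CPM.

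In SOD2i against Control, 4 of 28 tested Rab genes were called and all were lower: Rab3, Rab18, Rab27 and the exchange factor Rab3-GEF. The 4 lower members are 14.3% of those tested, where 12.8% of all genes were called lower, and 0 members were higher, where 10.3% of all genes were called higher. Log2 differences over the members ran from -0.61 to 0.34. Their median size was 0.14, against 0.24 over all genes.

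From the levels above, Rab3 fell by 0.61 on the log2 scale in SOD2i (SE 0.17, adjusted p = 0.0212), to 65.6% of Control. Rab18 fell by 0.56 (SE 0.18, adjusted p = 0.0405), to 67.8%, and Rab27 fell by 0.43 (SE 0.14, adjusted p = 0.0479), to 74.3%. Rab18 was thus called in opposite directions in the single genotypes, higher in Drp1SG and lower in SOD2i, each against the same Control libraries. Rab3-GEF, which loads Rab3 with GTP and in mammals also acts on Rab27, had 11.4, 10.4 and 9.34 CPM in Control, 9.64, 11.0 and 11.4 in Drp1SG, 7.19, 9.33 and 5.97 in SOD2i, and 10.9, 10.3 and 10.0 in the double genotype. SOD2i was low, but its replicate 2 at 9.33 CPM lay just under the lowest Control library at 9.34. The log2 difference was -0.47 ± 0.15 at an adjusted p of 0.0461.

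These calls lay close to the threshold and most were lost when a library was left out. Calls over all genes went from 1019 higher and 1267 lower to 801 and 997 without Control replicate 2. Without SOD2i replicate 3 they were 709 and 878, and without Control replicate 1 they were 1063 and 1306. No member was called without Control replicate 2 (adjusted p 0.0928 for Rab3, 0.134 for Rab18, 0.208 for Rab27 and 0.101 for Rab3-GEF) or without SOD2i replicate 3 (0.0507, 0.123, 0.0818 and 0.17). A single member was called without SOD2i replicate 1 (Rab18), and without any 1 of the Drp1SG replicates 1, 2 and 3 or of double genotype replicates 1 and 2 (Rab3 in each). Without double genotype replicate 3, Rab3 and Rab18 were called. Without Control replicate 1 or SOD2i replicate 2, Rab27 had 0.0921 and 0.0648 and Rab18 had 0.0682 and 0.107, and Rab3-GEF had 0.122 without Control replicate 1. Without either of these libraries Rab5 was called higher (0.0292 and 0.0129) and Rab19 lower (0.0259 and 0.0427). Rab19 was also called with the DESeq2 Wald test (0.0440) and with a filter of 1 CPM in 3 libraries (0.0390). In a fit of the Control and SOD2i libraries alone 0 members were called, and Rab3 had an adjusted p of 0.0676. The authors' deposited table for SOD2i gives 1 of 28 members an adjusted p under 0.05, Rab3 with a log2 difference of -0.60 (adjusted p = 0.0402). Of all genes with an adjusted p in it, 15.3% were under 0.05.

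In the double genotype against Control, 0 of 28 tested Rab genes were called with edgeR, where 4.62% of all genes were called higher and 4.29% lower. DESeq2 and limma with voom called 0 members as well. Of all 9863 genes, the DESeq2 Wald test called 651 higher and 698 lower, and limma with voom called 428 and 458. An unadjusted edgeR p under 0.05 was found for 3 members, and the share of all genes under it was not counted. Log2 differences over the members ran from -0.36 to 0.59, with a median size of 0.10 against 0.20 over all genes. Rab3-GAP had the smallest p, with a log2 difference of -0.19 ± 0.07 (adjusted p = 0.102). Rab14 had 0.25 ± 0.09 (adjusted p = 0.111), and without Control replicate 1 it had 0.35 (adjusted p = 0.0278) and was the 1 member called. Rab19 had -0.34 ± 0.14 (adjusted p = 0.148). The authors' deposited table for the double genotype also calls 0 members, where 9.87% of all genes with an adjusted p were called.

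**Figure D3:**
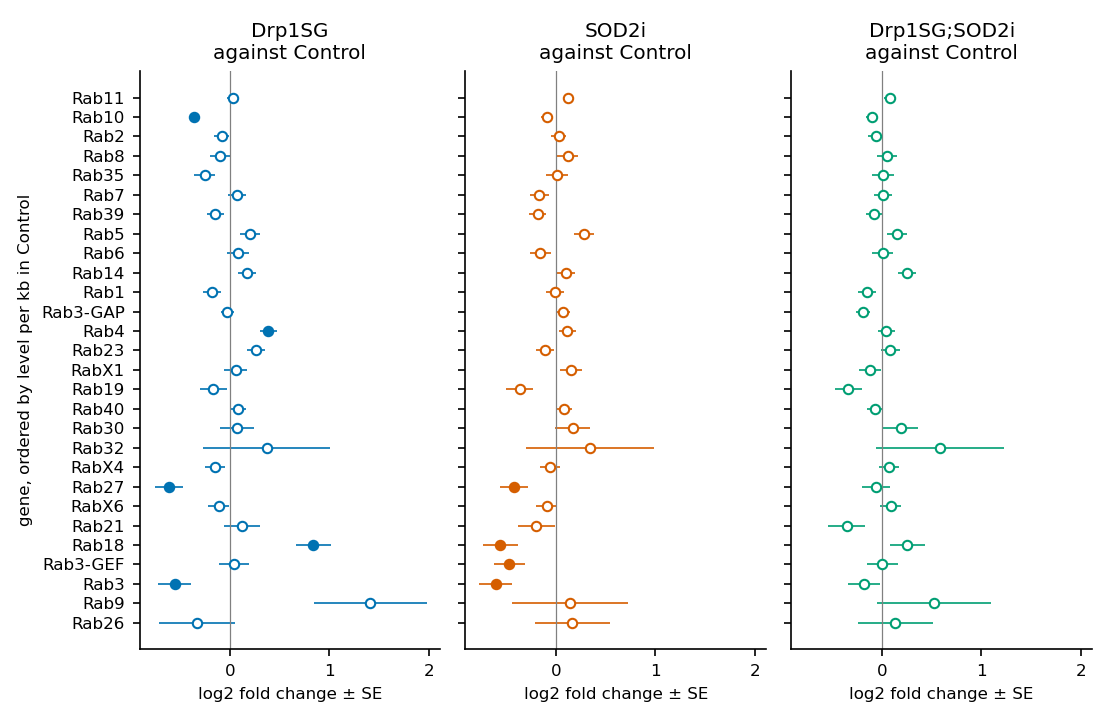
Log2 fold change ± SE against Control for each of the 28 tested Rab genes in Drp1SG, SOD2i and the double genotype, with filled symbols for genes at an adjusted p under 0.05. Filled symbols mark 5 genes in Drp1SG, 4 in SOD2i and none in the double genotype, and the 3 panels share the Control libraries.

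Set against Drp1SG, the double genotype had 3 of 28 Rab genes called. Rab10 was higher by 0.25 ± 0.06 on the log2 scale (adjusted p = 0.0164) and Rab27 by 0.56 ± 0.14 (adjusted p = 0.0276). Rab4 was lower, at -0.35 ± 0.09 (adjusted p = 0.0248). The 2 higher members are 7.14% of those tested, where 5.05% of all genes were called higher, and the 1 lower is 3.57%, where 5.82% of all genes were called lower. The groups did not overlap for these 3 genes, nor for several members that were not called, such as Rab35, Rab23 and Rab21. The share of all genes without overlap was not counted, so the lack of overlap sets no member apart. Each of the 3 differences had the sign opposite to that of Drp1SG against Control, which rests on the same Drp1SG libraries. Rab18 was at -0.58 ± 0.17 (adjusted p = 0.0524). Among the fits that left out 1 library it was called only without SOD2i replicate 1 (0.0298) or 2 (0.0340). The DESeq2 Wald test (0.0122), limma with voom (0.0284) and a fit of only the groups compared (0.0268) also called it.

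All 3 calls were lost without Drp1SG replicate 1 (adjusted p 0.0607 for Rab10, 0.0639 for Rab4 and 0.0878 for Rab27) and without double genotype replicate 2 (0.0668, 0.0553 and 0.0871). Calls over all genes went from 498 higher and 574 lower to 294 and 363 without Drp1SG replicate 1. Without double genotype replicate 2 they were 278 and 293. Without Drp1SG replicate 2 only Rab27 stayed called (0.0800 for Rab10 and 0.0911 for Rab4), and without double genotype replicates 1 or 3 only Rab10 did (Rab4 at 0.0588 and 0.0726, Rab27 at 0.0607 and 0.0826). Without Drp1SG replicate 3, Rab27 had 0.106.

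Set against SOD2i, the double genotype had 2 of 28 Rab genes called, Rab18 higher and Rab3-GAP lower. Each is 3.57% of the members tested, where 10.5% of all genes were called higher and 8.79% lower. Rab18 was at 0.82 ± 0.18 on the log2 scale (adjusted p = 0.00878), a call kept under all 22 alternatives. Rab3-GAP belongs to the complex that inactivates Rab3, and its mammalian counterpart also acts as an exchange factor for Rab18. It had 106, 111 and 103 CPM in Control, 110, 101 and 103 in Drp1SG, 106, 122 and 108 in SOD2i, and 93.3, 94.0 and 92.1 in the double genotype. The double genotype lay under every other library, with a log2 difference from SOD2i of -0.26 ± 0.07 (adjusted p = 0.0199). That call was lost without SOD2i replicate 2 (0.0648), without double genotype replicate 1 (0.0565) and without double genotype replicate 3 (0.0576). Rab3-GEF stood at 0.47 ± 0.15 (adjusted p = 0.0511), and was called without Control replicate 3 (0.0414) and without SOD2i replicate 2 (0.00858). It was also called with DESeq2 size factors (0.0489), the DESeq2 Wald test (0.0175) and limma with voom (0.0365). A filter of 1 CPM in 3 libraries (0.0259) and the covariate of unstable egg transcripts (0.0299) gave the call as well. Rab27, at 0.37 ± 0.14 (adjusted p = 0.0906), was called without Control replicate 3 (0.0410).

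Whether the difference made by Drp1SG depended on SOD2i was tested as an interaction, the Drp1SG difference within SOD2i embryos minus that within embryos without it. This was called for 4 of 28 Rab genes, 14.3%, where 16.5% of all genes were called in either direction. It was positive for Rab27 at 0.99 ± 0.20 on the log2 scale (adjusted p = 0.00593), for Rab3 at 0.99 ± 0.24 (adjusted p = 0.0143) and for Rab10 at 0.34 ± 0.08 (adjusted p = 0.0139). It was negative for Rab4 at -0.46 ± 0.12 (adjusted p = 0.0235). Rab27 and Rab3 shared a pattern: each was lower than Control in both single genotypes, while the double genotype stood at 96.0% and 88.2% of Control. Rab10 and Rab4 departed from Control in Drp1SG and stood at 92.9% and 103% of Control in the double genotype. The double genotype also had less Drp1 RNA than Drp1SG (-0.94, adjusted p = 0.00126) and more Sod2 RNA than SOD2i (0.74, adjusted p = 0.0126). Whether these levels bear on the interactions was not tested. Rab18 had an interaction of -0.02 ± 0.25 (adjusted p = 0.973), with Drp1SG differences of 0.84 in one background and 0.82 in the other. The interactions of Rab27 and Rab3 were called under all 21 alternatives, that of Rab10 was lost without Drp1SG replicate 2 (0.0508), those of Rab3-GEF (0.0312) and Rab5 (0.0386) were called without SOD2i replicate 2, and that of Rab4 was lost with upper-quartile scaling (-0.36, adjusted p = 0.136).

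**Figure D4:**
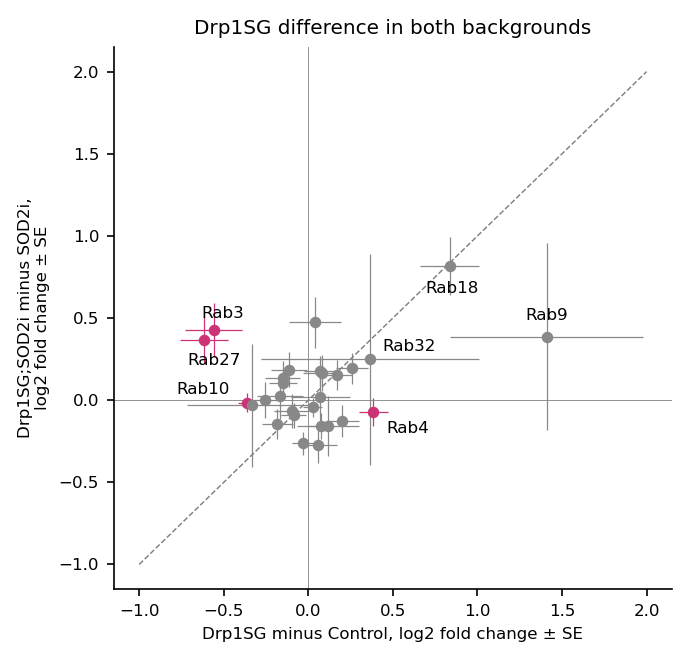
Log2 fold change ± SE of Drp1SG against Control (horizontal axis) and of the double genotype against SOD2i (vertical axis) for the 28 tested Rab genes, with the diagonal for equal differences and coloured points for the 4 genes with a called interaction. Rab18 lies near the diagonal at 0.84 and 0.82, while Rab27, Rab3 and Rab10 lie above it and Rab4 lies below.

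Rab32 and Rab9 had the widest spread among libraries of 1 genotype, and are described for that reason after their values were seen. Rab32, which forms pigment granules in the fly eye and in mammals is also found on mitochondria, had 59.7, 31.9 and 12.4 CPM in Control, 32.6, 46.8 and 54.6 in Drp1SG, 67.5, 7.63 and 56.2 in SOD2i, and 59.6, 40.6 and 55.9 in the double genotype. The highest library exceeded the lowest 8.85-fold, and both were SOD2i libraries. Rab9 had 0.824, 0.783 and 0.566 CPM in Control, 1.21, 2.54 and 2.02 in Drp1SG, 1.62, 0.156 and 0.618 in SOD2i, and 1.39, 0.859 and 0.893 in the double genotype. SOD2i replicate 2 was the lowest library for both genes.

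The mean log2 CPM of the 23 unstable egg transcripts was 4.91, 4.91 and 4.04 in Control, 5.39, 5.81 and 5.79 in Drp1SG, 5.36, 4.02 and 4.91 in SOD2i, and 5.28, 4.96 and 4.97 in the double genotype. SOD2i replicate 2 and Control replicate 3 were the lowest libraries, as they were for Rab32, and the next lowest library was well above them. With that mean as a covariate in edgeR, Rab32 had a log2 difference of -1.73 in Drp1SG against Control (adjusted p = 0.00657), against 0.37 ± 0.64 (adjusted p = 0.738) without it. The direction of Rab32 thus depended on the covariate. Every Drp1SG library lay above every other library on this mean, so covariate and Drp1SG genotype cannot be told apart.

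**Figure D5:**
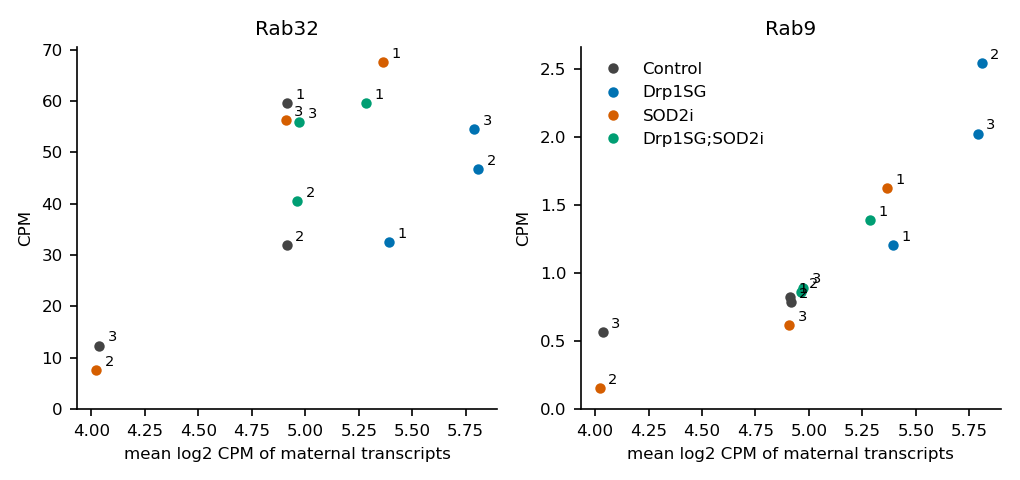
CPM of Rab32 and Rab9 in each library (vertical axes) beside the mean log2 CPM of 23 unstable egg transcripts (horizontal axis), with points coloured by genotype and numbered by replicate. SOD2i replicate 2 and Control replicate 3, at 4.02 and 4.04 on the horizontal axis, hold the lowest Rab32 levels at 7.63 and 12.4 CPM.

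Other genes of the Rab cycle were followed through lists. Of 33 tested regulators outside the family, 3 were higher and 1 lower in Drp1SG, 1 was higher and 6 lower in SOD2i, and 1 was higher and 2 lower in the double genotype, all against Control. Median log2 differences of the list were 0.01, -0.02 and -0.17, where those of all genes were 0.01, 0.00 and 0.00. The shares called higher and lower were 9.09% and 3.03% in Drp1SG (9.72% and 8.83% of all genes), 3.03% and 18.2% in SOD2i (10.3% and 12.8%), and 3.03% and 6.06% in the double genotype (4.62% and 4.29%). Gdi, which extracts inactive Rab proteins from membranes, had 76.8 ± 2.76 CPM in Control, 104.0 ± 6.47 in Drp1SG (log2 difference 0.44, adjusted p = 0.0117), 54.6 ± 8.10 in SOD2i (-0.49, adjusted p = 0.00455) and 79.0 ± 5.93 in the double genotype. Gdi was thus called in opposite directions in the single genotypes, as Rab18 was. The gene tbc rose from 3.06 ± 0.261 CPM in Control to 15.5 ± 3.24 in Drp1SG and 23.8 ± 4.06 in SOD2i, and to 5.21 ± 0.243 in the double genotype (adjusted p = 6.13e-06, 7.39e-07 and 0.0181). Ocrl, a phosphoinositide phosphatase of endosomes, was higher in Drp1SG at 34.6 ± 2.2 CPM against 21.9 ± 2.42 (adjusted p = 0.00790). Bet3, a subunit of the TRAPP exchange factor complex, was lower in SOD2i at 0.536 ± 0.0441 CPM against 1.15 ± 0.0143 (adjusted p = 0.00160).

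Of 45 tested effectors and tethers, 8 were higher and 2 lower in Drp1SG, 4 were higher and 12 lower in SOD2i, and 0 were higher and 4 lower in the double genotype. The shares higher and lower were 17.8% and 4.44% in Drp1SG, 8.89% and 26.7% in SOD2i, and 0% and 8.89% in the double genotype, beside the same shares of all genes as above. Median log2 differences were 0.07, -0.01 and -0.02. The 4 genes with the smallest adjusted p included Sec10, Sec6 and Exo70, subunits of the exocyst, which tethers secretory vesicles to the plasma membrane. Sec10 was higher in Drp1SG, at 44.5 ± 3.17 CPM against 28.6 ± 2.63 in Control (adjusted p = 5.75e-04). Sec6 was lower in SOD2i at 16.3 ± 1.28 CPM against 25.7 ± 1.02 (adjusted p = 4.29e-04), and in the double genotype at 20.1 ± 1.27 (adjusted p = 0.0386). Exo70 was lower in SOD2i, at 7.35 ± 1.31 CPM against 13.3 ± 1.03 (adjusted p = 8.87e-04), as was the myotubularin phosphatase mtm, at 4.47 ± 0.294 CPM against 8.70 ± 0.775 (adjusted p = 8.71e-05).

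Of 42 tested genes of membrane traffic in cellularization, 8 were higher and 0 lower in Drp1SG, 5 were higher and 7 lower in SOD2i, and 1 was higher and 0 lower in the double genotype. The shares higher and lower were 19.0% and 0% in Drp1SG, where 9.72% and 8.83% of all genes were called, 11.9% and 16.7% in SOD2i, where 10.3% and 12.8% were, and 2.38% and 0% in the double genotype, where 4.62% and 4.29% were. The genes nuf and lva also stand in the list of effectors and tethers and are counted in both. The median log2 differences were 0.14, -0.03 and 0.08. The dynamin shi, which cuts endocytic vesicles from the membrane, was higher in SOD2i at 212 ± 5.34 CPM against 177 ± 3.79 (adjusted p = 0.00255). The coatomer subunit gammaCOP was higher in Drp1SG (log2 difference 0.21, adjusted p = 0.0366) and lower in SOD2i (-0.30, adjusted p = 0.00557). The adaptor cindr was higher in Drp1SG (0.32, adjusted p = 0.00501). The NSF gene comt, whose protein takes SNARE complexes apart, was lower in SOD2i (-0.77, adjusted p = 0.00290). Another NSF gene of the list, Nsf2, went the other way and was higher in SOD2i (0.28, adjusted p = 0.0329).

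The Arf and Sar GTPases, which recruit vesicle coats, were counted in the same way. Of 16 tested Arf and Sar genes and their regulators, 0 were called in Drp1SG or the double genotype, and 1 was lower in SOD2i, the Arf exchange factor garz (log2 difference -0.29, adjusted p = 0.0337). Of all genes, 18.6% were called in Drp1SG, 8.91% in the double genotype and 23.2% in SOD2i, either way.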

How the data were processed

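Polyadenylated RNA was captured on poly(T) beads and sequenced in 12 embryo libraries, 3 biological replicates of each of 4 genotypes. The authors deposited raw counts of reads for each gene, which were tested here, and tables of their own DESeq2 results with log2 fold changes and p-values for each genotype against Control, per the file headers. Tools listed in the submitters' processing notes, without their roles, are HISAT2 2.1.0, Bowtie2 2.2.4, featureCounts 1.5.2, Trimmomatic and DESeq2. The genome build and the strand setting are not given in the sources used here, so no coordinates are printed.

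After filterByExpr and TMM scaling, counts were fitted with the quasi-likelihood test of edgeR 4.0.16 in R 4.3.3, with 12 libraries and 1 mean per genotype. P-values were adjusted over all 9863 tested genes by Benjamini-Hochberg, and a gene was called under 0.05. SE is the log2 fold change over the square root of F. Library sizes in CPM are TMM-scaled, and a prior count of 2 was added for log2 CPM. The biological coefficient of variation common to all genes was 0.176. Reads carry no molecular identifiers, so limits from counts cover counting error only. Exonic lengths and overlaps come from the Ensembl annotation of BDGP6, matched by gene identifier for 35 of 35 members. The script was tested on simulated counts.

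The members, the gene lists and the maternal covariate were chosen with earlier results of these data known. Members called in any comparison are given in full, then the 8 most abundant uncalled ones, then up to 4 called genes per list with the smallest adjusted p. Rab32, Rab9, Rab23, Rab19 and Nsf2 were named after their values were seen. Alternatives were upper-quartile scaling, size factors of DESeq2 1.42.0, no filter, 1 CPM in 3 libraries, the DESeq2 Wald test, voom of limma 3.58.1, only the groups compared, the replicate number as a block, the maternal covariate, and leaving out each library, where a genotype left with 2 libraries shares the spread of the others. Leaving out Control replicate 3 and SOD2i replicate 2 together was chosen after seeing the data. On the maternal covariate every Drp1SG library lay above all others, so fits with it cannot separate it from the Drp1SG genotype. The labels name no batch. Value columns of the table that belong to no sample numbered 0. A further gene list is not reported here.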

Additional observations from a re-analysis of the deposited data

Results flagged for a closer look

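For 4 Rab genes the log2 difference made by Drp1SG differed between embryos with and without SOD2i, by the edgeR interaction contrast adjusted over all tested genes. The interaction was 0.99 for Rab27 (adjusted p = 0.00593), 0.99 for Rab3 (adjusted p = 0.0143), 0.34 for Rab10 (adjusted p = 0.0139) and -0.46 for Rab4 (adjusted p = 0.0235). Rab27 and Rab3 stood at 65.2% and 67.8% of Control in Drp1SG, 74.3% and 65.6% in SOD2i, and 96.0% and 88.2% in the double genotype. In these 4 genes the double genotype was nearer to Control than Drp1SG was, and no cause was tested. The 4 were chosen by an interaction that rests on the same Drp1SG libraries. Over all genes, 8.91% were called in the double genotype against Control and 18.6% in Drp1SG, with median sizes of 0.20 and 0.23.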

How the results depend on the processing

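Of 18 gene results, 4 kept their call under every alternative, namely Rab10 in Drp1SG against Control, Rab18 in the double genotype against SOD2i, and the interactions of Rab27 and Rab3, and 0 reversed. The count of called Rab genes in Drp1SG against Control was 5, and 3 to 7 when a library was left out. Over all genes, calls there were 959 higher and 871 lower. They were 636 and 476 without Drp1SG replicate 2, and 1064 and 1136 without SOD2i replicate 2. In SOD2i against Control the count of Rab genes was 4, but 1 with no filter and 2 with limma and voom. It was 0 in a fit of only the groups compared, and 0 to 4 when a library was left out. Over all genes, calls there were 1019 higher and 1267 lower, and 463 and 800 in a fit of only the groups compared. They were 986 and 1160 with no filter, and 989 and 1271 with limma and voom. They were 709 and 878 without SOD2i replicate 3, and 1063 and 1306 without Control replicate 1. In the double genotype against Control the count of Rab genes was 0, and 0 to 1 when a library was left out. Over all genes, calls there were 456 higher and 423 lower. They were 282 and 185 without double genotype replicate 3, and 500 and 610 without SOD2i replicate 2. Against Drp1SG the count of Rab genes was 3, 9 with the maternal covariate, and 0 to 4 when a library was left out. Against SOD2i it was 2, 1 with upper-quartile scaling, 1 in a fit of only the groups compared, 5 with the maternal covariate, 5 without Control replicate 3 and SOD2i replicate 2 together, and 1 to 4 when a library was left out. The interaction gave 4, and 7 with the maternal covariate. Calls over all genes rose with that covariate as well. Against Drp1SG they went from 498 higher and 574 lower to 1253 and 1183. Against SOD2i they went from 1036 and 867 to 1469 and 1114. Without Control replicate 3 and SOD2i replicate 2 together they were 1051 and 892 against SOD2i. Against SOD2i they were 659 and 540 without SOD2i replicate 3, and 1148 and 964 without Control replicate 3. Against Drp1SG they were 278 and 293 without double genotype replicate 2, and 591 and 670 without SOD2i replicate 2. For the interaction, calls over all genes went from 907 and 724 to 1414 and 1213 with the maternal covariate. The cause was not tested. With the replicate number as a block, SOD2i against Control had 2 called genes, Rab27 and Rab3-GEF passing to adjusted p of 0.0535 and 0.0526, and the other counts were unchanged by the block. Deviations of same-numbered libraries correlated at -0.267 to 0.216, and 5 of 12 libraries correlated best with their own number. These values gave no sign that the numbers pair the samples, but they cannot exclude a pairing. Upper-quartile scaling ended the calls of Rab4 (adjusted p = 0.0539 in Drp1SG against Control). Depth limits Rab26 and the 7 untested members, while Rab9 is limited by its spread between libraries (pooled SD of log2 CPM 0.870).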
